A study of Homo sapiens with 2 samples.

Results

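The 242 genes described here are zinc finger genes with a numbered ZNF symbol that gave a clear signal on the arrays. They were chosen by symbol (ZNF, a number and at most 1 further letter, as the sole gene of a probe set) and selected on measured level: each gene was represented by its brightest probe set over both arrays, by mean log2 signal, and that mean had to reach log2(200). Of 466 such genes on the array, 242 passed and 224 did not, out of 19775 genes with a single-symbol probe set in all. RNA came from 2 samples labelled as U87, an established human glioblastoma line grown with serum, 48 hours after lipid transfection. One sample was labelled as treated with siRNA to FOXM1 (a forkhead factor that drives mitotic genes) and the other with a non-target siRNA. Each was hybridised to 1 array, so no test between the conditions was possible, and every difference below is one between these 2 arrays as labelled, without a replicate check. The study asked which transcripts differ after FOXM1 knockdown.

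Zinc finger proteins of this class carry rows of C2H2 fingers, small folds held by a zinc ion between cysteines and histidines, which mostly read DNA. Many of the numbered ZNF genes also encode a KRAB box, which binds the co-repressor TRIM28 and through it brings in the histone methyltransferase SETDB1 and HP1 proteins to silence chromatin, above all at retroelements. These KRAB genes multiplied by tandem duplication, and most lie in clusters, the largest of them on chromosome 19. Other ZNF genes are unrelated to the KRAB group and act in transcription, RNA processing, translation or mitosis.

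The FOXM1 probe set read 1343 on the FOXM1-siRNA-labelled array and 1520 on the non-target-labelled array, a log2 difference of -0.18. CDKN2A, a gene of the chromosome region 9p21 that U87 cells are known to lack, read 421 on the FOXM1-siRNA-labelled array and 3467 on the non-target-labelled array, in an _x_at probe set. MTAP and CDKN2B of the same region were under the floor on the FOXM1-siRNA-labelled array (76.3 and 31.8) and above it on the non-target-labelled array (619 and 349.8). The non-target-labelled array thus goes against its cell label in all 3 genes, and the FOXM1-siRNA-labelled array, with CDKN2A over its floor of 77.7, in 1. An effect of the siRNA and a difference between the cells cannot be told apart in any result below. Of 9 glial markers, 6 lay above the floor (the 90th percentile of olfactory receptor probe sets, 77.7 on the FOXM1-siRNA-labelled array and 60.8 on the non-target-labelled array) on each array, with summed signals of 70661 on the FOXM1-siRNA-labelled array and 24865 on the non-target-labelled array, while GFAP was under it on both. Those sums were mostly VIM (40017 FOXM1 siRNA label, 21179 non-target label) and CD44 (29344 FOXM1 siRNA label, 2222 non-target label). The glial markers had no common direction, since SOX2 (59.2 FOXM1 siRNA label, 680 non-target label) and S100B (2.21 FOXM1 siRNA label, 87.8 non-target label) were above the floor on the non-target-labelled array alone. Of 6 epithelial markers, 4 lay above the floor on each array, with sums of 1104 on the FOXM1-siRNA-labelled array and 12763 on the non-target-labelled array. The epithelial sums were mostly DSP (336 FOXM1 siRNA label, 9707 non-target label) and KRT18 (380 FOXM1 siRNA label, 2655 non-target label). KRT8 (265 FOXM1 siRNA label, 220 non-target label) went the other way. CDH1 was above the floor on the non-target-labelled array alone and EPCAM on the FOXM1-siRNA-labelled array alone. None of 3 haematopoietic markers reached the floor on either array, and 2 of 5 neuronal markers did on each. The ACTB control, whose 3' to 5' signal ratio grows as RNA degrades, gave a ratio of 4.21 on the FOXM1-siRNA-labelled array and 6.79 on the non-target-labelled array. For the GAPDH control this ratio was 1.09 on the FOXM1-siRNA-labelled array and 1.26 on the non-target-labelled array, a smaller difference. The part of these marker and RNA differences in the ZNF results was not tested.

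The ZNF genes were lower as a group on the FOXM1-siRNA-labelled array. Their median signal was 363 there and 646 on the non-target-labelled array. In such bulk RNA, fewer cells of a type and less RNA per cell cannot be told apart. The median log2 difference was -0.57, or 1.49-fold lower, with the middle 50% of genes between -1.18 and 0.09, and 176 of the 242 genes lay below 0. A total of 73 genes (30.2%) were at least 2-fold lower, against 16.1% of all 9741 genes that met the same signal threshold. Only 15 (6.20%) were at least 2-fold higher, against 15.2% of all genes, and 154 differed by less than 2-fold. The median over all those genes was -0.09, and both counts of ZNF genes therefore lay away from the background, in opposite directions.

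Among larger differences the counts depended on the level filter. At least 4-fold lower were 26 ZNF genes (10.7%), against 4.07% of all genes. At least 4-fold higher were 2 (0.826%), against 6.56% of all genes. Of these genes, 17 of the 26 and both of the 2 read under 200 on the array where they were low, and so passed the filter only through the other array. With 200 required on both arrays, a choice made after seeing the data, 9 of 196 ZNF genes passed 4-fold on the lower side and 0 on the higher, against 2.01% and 3.99% of 8741 genes. The imbalance at 2-fold was also present at matched signal. Among genes with a mean signal of 244 to 1596, the range that holds the central 80% of ZNF genes, 63 of 192 ZNF genes (32.8%) passed 2-fold on the lower side and 12 (6.25%) on the higher, against 18.5% and 16.7% of all genes in that range. The 121 brighter and the 121 dimmer ZNF genes had medians of -0.61 and -0.56. Across the 242 genes, which are not independent, the log2 signals had a Pearson r of 0.60 between arrays, and the mean log2 signal had an r of 0.10 with the log2 difference.

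**Figure D1:**
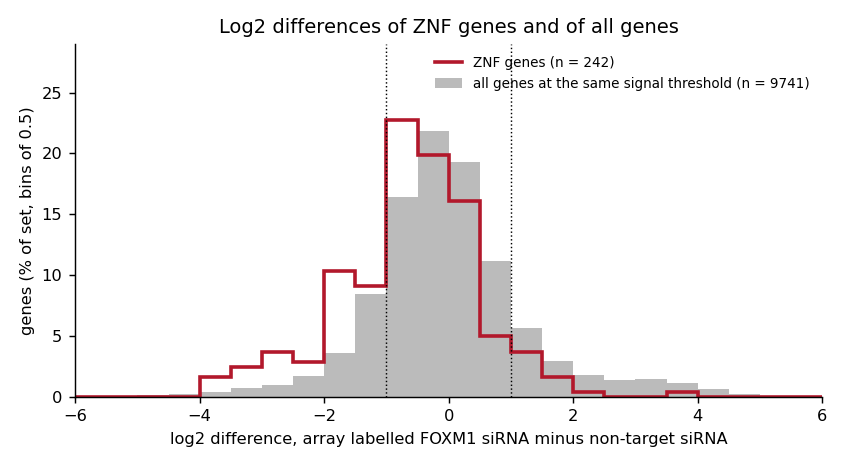
Share of genes (percent of each set, y axis) by log2 difference between the FOXM1-siRNA-labelled array and the non-target-labelled array (x axis, bins of 0.5) for the 242 ZNF genes (red outline) and all 9741 genes at the same signal threshold (grey). Dotted lines mark 2-fold; 30.2% of ZNF genes lie at or left of the lower line, against 16.1% of all genes.

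The choice of members by mean level bears on these counts. On both arrays 196 genes read 200 or more. A further 8 did so on the FOXM1-siRNA-labelled array alone and 38 on the non-target-labelled array alone, and these 46 genes passed through the array on which they were high. When 200 was required on both arrays, 42 of 196 genes passed 2-fold on the lower side and 11 on the higher, and their median was -0.40, and over all genes so selected 13.7% were lower and 12% higher. Just inside the threshold were ZNF609 (235 on the FOXM1-siRNA-labelled array and 175 on the other), ZNF135 (192 FOXM1 siRNA label, 217 non-target label) and ZNF341 (168 FOXM1 siRNA label, 251 non-target label). Just outside were ZNF782 (156 FOXM1 siRNA label, 245 non-target label), ZNF530 (254 FOXM1 siRNA label, 149 non-target label) and ZNF585A (72.8 FOXM1 siRNA label, 508 non-target label). Of the 224 genes under the threshold, 79 were under the floor on both arrays, 86 on 1 array and 59 on neither. Among those 59, 11 (18.6%) passed 2-fold on the lower side and 7 (11.9%) on the higher, with a median of -0.15. Over all genes that met the threshold the shares were 16.1% and 15.2% and the median -0.09. The median of the 59 cannot be compared with these values or with the -0.57 of the 242. The 59 had to lie above both floors, which leaves out the 86 genes under 1 floor and limits the size of a difference. Genes over the threshold were not held to that rule. When the threshold was set to 100, the median of the 315 ZNF genes was -0.56, against -0.07 over all genes that met 100.

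Of the 26 genes at least 4-fold lower, 4 were under the floor on the FOXM1-siRNA-labelled array, so that their folds are bounds. ZNF140, which encodes a KRAB repressor, read 68.9 on the FOXM1-siRNA-labelled array and 1061 on the non-target-labelled array, at least 13.6-fold lower. ZNF468, of a chromosome 19 cluster, read 70.8 (FOXM1 siRNA label) and 910 (non-target label), at least 11.7-fold lower. ZNF736 (74.7 FOXM1 siRNA label, 669 non-target label) and ZNF354A (75.02 FOXM1 siRNA label, 623 non-target label), a further KRAB gene, were lower by at least 8.60-fold and 8.01-fold. All 4 thus had clear signal on the non-target-labelled array and none above background on the other. ZNF140, ZNF468 and ZNF354A rest on 1 probe set each.

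Above the floor on both arrays, ZNF300 was the lowest, at 78.9 on the FOXM1-siRNA-labelled array and 1023 on the non-target-labelled array (13.0-fold lower), which places it barely above the floor of 77.7. ZNF711, an X-linked gene whose loss causes intellectual disability, read 283 (FOXM1 siRNA label) and 3636 (non-target label), 12.8-fold lower. The neighbours ZNF567 (114 FOXM1 siRNA label, 1166 non-target label) and ZNF529 (110 FOXM1 siRNA label, 988 non-target label) were 10.3-fold and 9.02-fold lower. ZNF711 stayed well above the floor on both arrays, while the other 3 came close to it on the FOXM1-siRNA-labelled array. ZNF239 read 86.3 on the FOXM1-siRNA-labelled array and 762 on the non-target-labelled array (8.83-fold lower). ZNF703, a co-repressor gene amplified in luminal breast cancer, read 547 (FOXM1 siRNA label) and 4422 (non-target label), 8.09-fold lower, and kept a clear signal on both arrays. ZNF704, a relative of ZNF395, read 96.7 (FOXM1 siRNA label) and 630 (non-target label), 6.51-fold lower, but with the median over its 6 probe sets, of which 3 were under both floors, its log2 difference was 0.052. ZNF738 (199.8 FOXM1 siRNA label, 1556 non-target label), ZNF573 (139 FOXM1 siRNA label, 1040 non-target label) and ZNF320 (78.2 FOXM1 siRNA label, 547 non-target label) of chromosome 19 were 7.79-fold, 7.46-fold and 6.99-fold lower. ZNF678 (292 FOXM1 siRNA label, 1879 non-target label) and ZNF32 (176 FOXM1 siRNA label, 1093 non-target label) completed the 12 lowest, at 6.43-fold and 6.21-fold. The 10 others past 4-fold were 6.16-fold to 4.01-fold lower. Among them was ZNF204P, 1 of 4 pseudogenes in the set, at 191 (FOXM1 siRNA label) and 1159 (non-target label). The other pseudogenes, ZNF767P, ZNF271P and ZNF252P, had log2 differences of -0.37, -0.24 and 1.11.

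On the higher side ZNF365 stood far from the rest. This gene, whose product is linked to recovery from stalled replication and to telomere stability, read 1084 on the FOXM1-siRNA-labelled array and 81.8 on the non-target-labelled array (13.3-fold higher), and its other probe set was under the floor on both arrays. ZNF335, a subunit of histone methyltransferase complexes that is mutated in a form of microcephaly, read 438 (FOXM1 siRNA label) and 98.3 (non-target label), 4.45-fold higher. No other ZNF gene reached 4-fold in this direction. ZNF404 (728 FOXM1 siRNA label, 203 non-target label), ZNF25 (582 FOXM1 siRNA label, 169 non-target label), ZNF462 (1358 FOXM1 siRNA label, 417 non-target label) and ZNF804A (1094 FOXM1 siRNA label, 337 non-target label), a gene known from schizophrenia genetics, were 3.59-fold to 3.25-fold higher. ZNF175 (1553 FOXM1 siRNA label, 600 non-target label), ZNF395 (2472 FOXM1 siRNA label, 961 non-target label), ZNF432 (1280 FOXM1 siRNA label, 508 non-target label), ZNF532 (1123 FOXM1 siRNA label, 459 non-target label), ZNF654 (948 FOXM1 siRNA label, 429 non-target label) and ZNF521 (401 FOXM1 siRNA label, 183 non-target label) followed, at log2 differences of 1.37 to 1.13. These 10 genes were well above the floor on both arrays.

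**Figure D2:**
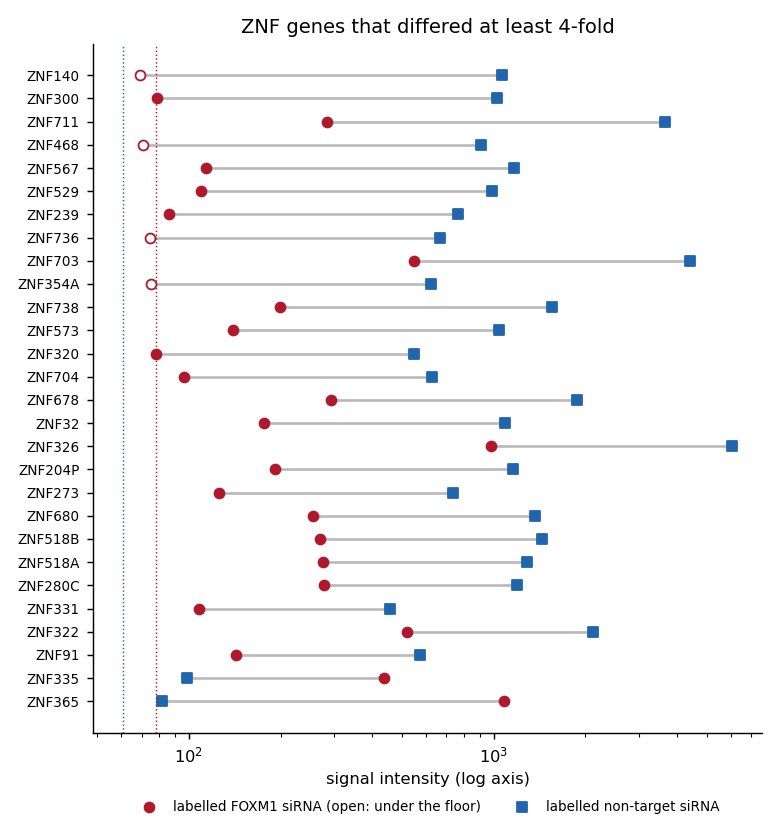
Signal intensity (log axis) on the FOXM1-siRNA-labelled array (red circles, open where under the floor) and on the non-target-labelled array (blue squares) for the 28 ZNF genes that differed at least 4-fold, from the lowest log2 difference at the top to the highest at the bottom; dotted lines are the 2 floors. In 26 genes the red circle lies left of the blue square, and only ZNF335 and ZNF365 show the opposite order.

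To show what lies upstream of the genes at both ends, the 250 bases before the outermost annotated start are given from RefSeq (build GRCh38.p14, 5′ to 3′ on the gene's strand) for the 3 lowest and the 3 highest genes above both floors that have an entry. Capitals mark a match to CCGGAAG, the core bound by ETS factors, on either strand.
ZNF300 (chr5:150904981-150905230, minus strand): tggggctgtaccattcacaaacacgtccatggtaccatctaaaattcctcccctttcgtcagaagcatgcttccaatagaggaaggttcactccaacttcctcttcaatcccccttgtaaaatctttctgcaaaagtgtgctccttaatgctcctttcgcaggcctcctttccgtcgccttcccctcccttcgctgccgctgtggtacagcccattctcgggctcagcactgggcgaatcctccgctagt
ZNF711 (chrX:85243741-85243990, plus strand): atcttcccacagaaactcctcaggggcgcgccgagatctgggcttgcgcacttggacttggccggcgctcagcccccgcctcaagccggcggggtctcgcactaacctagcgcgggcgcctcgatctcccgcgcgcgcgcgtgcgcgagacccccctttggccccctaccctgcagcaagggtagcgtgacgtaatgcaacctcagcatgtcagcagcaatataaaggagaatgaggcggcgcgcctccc
ZNF567 (chr19:36666684-36666933, plus strand): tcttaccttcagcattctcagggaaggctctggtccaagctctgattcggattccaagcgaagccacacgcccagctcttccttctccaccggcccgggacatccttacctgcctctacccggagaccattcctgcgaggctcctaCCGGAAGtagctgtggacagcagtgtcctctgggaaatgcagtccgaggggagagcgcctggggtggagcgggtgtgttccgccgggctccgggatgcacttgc
ZNF365 (chr10:62374119-62374368, plus strand): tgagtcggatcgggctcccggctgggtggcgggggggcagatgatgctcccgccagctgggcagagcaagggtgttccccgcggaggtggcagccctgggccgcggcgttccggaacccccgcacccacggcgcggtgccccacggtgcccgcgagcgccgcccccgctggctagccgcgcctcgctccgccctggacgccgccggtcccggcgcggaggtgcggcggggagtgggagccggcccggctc
ZNF335 (chr20:45972204-45972453, minus strand): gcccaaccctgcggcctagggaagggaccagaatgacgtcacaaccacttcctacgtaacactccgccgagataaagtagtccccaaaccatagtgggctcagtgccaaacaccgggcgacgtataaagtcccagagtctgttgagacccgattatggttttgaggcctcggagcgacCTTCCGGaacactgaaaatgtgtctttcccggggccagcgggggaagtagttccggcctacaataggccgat
ZNF404 (chr19:43883965-43884214, minus strand): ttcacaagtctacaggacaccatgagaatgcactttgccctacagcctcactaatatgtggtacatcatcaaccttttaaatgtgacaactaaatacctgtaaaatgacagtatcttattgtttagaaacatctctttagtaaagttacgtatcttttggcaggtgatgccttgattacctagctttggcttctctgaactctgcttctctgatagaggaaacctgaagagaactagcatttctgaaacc
These windows differ widely in composition. That of ZNF365 is 79.6% G and C with 35 CpG dinucleotides and that of ZNF711 66.4% with 27, whereas ZNF300 has 10 CpG and ZNF404 1. ZNF567 at the low end and ZNF335 at the high end hold the ETS core, so its presence did not follow the direction of the difference in these 6 genes.

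Promoter entries were found for 208 of the 242 ZNF genes, and 6 short motifs were searched on both strands in the full windows of 300 bases, which run 50 bases past the start. The ETS core CCGGAAG was in 38.9% of ZNF promoters, against 21.0% of 8158 promoters of genes at the same signal threshold and 10.6% of all 27305 promoters in the table. It was in 25 of 63 promoters of genes at least 2-fold lower (39.7%), 53 of 135 within 2-fold (39.3%) and 3 of 10 at least 2-fold higher. Its share was thus close to equal in lower genes and in genes within 2-fold. The CHR element TTTGAA, through which FOXM1 with the MuvB complex reaches mitotic promoters, was in 5 of 63, 15 of 135 and 2 of 10 promoters of the same 3 groups, 10.6% of all ZNF promoters against 10.1% at the same signal threshold and 15.5% in the whole table. The forkhead site GTAAACA was in 3 of the 208 (1.44%, against 2.38% and 3.44%). For the NRF1 core GCATGCGC the shares were 6.73%, against 6.06% and 3.29%, and for the YY1 core AAGATGGC 6.25%, against 6.02% and 3.01%. The E2F site TTTCCCGC was in 3 promoters (1.44%, against 2.79% and 1.66%). The median number of CpG in the window was 22 in lower genes, 24 in genes within 2-fold and 22 in higher genes, against 27 at the same signal threshold. A match describes letters in a window and no binding.

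Lower ZNF genes were found on 15 of the 21 chromosomes that carry ZNF genes of this set, and chromosome 19 was close to the others together. Its 83 genes had a median log2 difference of -0.61, with 25 at least 2-fold lower (30.1%) and 3 higher. The 159 genes on other chromosomes had a median of -0.54, with 48 lower (30.2%) and 12 higher. Genes that are not in the set differed from the ZNF genes on the same chromosome: the 444 others on chromosome 19 had a median of 0.04, with 7.88% at least 2-fold lower. The same held for chromosome 7, where 25 ZNF genes had a median of -0.66 with 7 lower and none higher, against a median of 0.23 and 8.72% lower over 436 others. In 14 of the 17 chromosomes with at least 5 ZNF genes their median was below that of the other genes. The 3 exceptions were chromosomes 3, 9 and 15. On chromosome 18 none of 8 ZNF genes was at least 2-fold lower, and ZNF521 and ZNF532 were higher. Of the 144 other genes there, 9.72% were lower and 32 were higher. None of the 5, 5 and 6 ZNF genes of chromosomes 9, 15 and 17 was lower, against 14.75%, 10.9% and 11.3% of the other genes there. With so few ZNF genes, these counts lie near those shares.

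Chromosomes X, 6, 16 and 12 held the largest shares of lower genes among those with at least 5 members. On chromosome 16, 8 of 16 ZNF genes were at least 2-fold lower. These genes, named after their values were seen, were ZNF689, ZNF500, ZNF213, ZNF48, ZNF764, ZNF205, ZNF598 and ZNF747, with log2 differences from -1.87 to -1.04. On chromosome 6, 4 of 6 were lower (ZNF204P, ZNF322, ZNF184 and ZNF318, also named after their values were seen), and on chromosome X 5 of 7 (ZNF711, ZNF280C, ZNF449, ZNF75D and ZNF182). Other genes of chromosomes 6 and X were also often at least 2-fold lower, in 32.5% and 29.2% of cases, against 18.7% on chromosome 16. A lower signal of chromosomes 6 and X as a whole therefore moved with the ZNF genes there, and its part was not tested.

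Within chromosome 19 the differences were uneven along the chromosome. The 83 genes were divided into 13 blocks wherever neighbouring gene starts in the GRCh38.p14 gene table lay over 1.5 Mb apart. For the counts below, 16.1% of all genes at the signal threshold were at least 2-fold lower and 15.2% higher. Of the 444 others on chromosome 19, 7.88% were lower. All 5 genes of the block from ZNF101 to ZNF738 were at least 2-fold lower in their brightest probe set, with a median of -1.60. The 2 further probe sets of ZNF101 above both floors gave -0.23 and 0.45, and that of ZNF430 gave -1.64. ZNF85 and ZNF430 were read by _x_at probe sets, whose probes may bind related genes, and ZNF14 has only 1 probe set. In the block from ZNF302 to ZNF573, 5 of 7 were lower, with a median of -1.72, and the 2 others were ZNF146 and ZNF565 at -0.78 and 0.74. Of the 23 measured neighbours in that interval that belong to no zinc finger family, 2 were lower and 4 higher, with a median of 0.05. From ZNF317 to ZNF562, 3 of 6 genes were lower, with a median of -1.30. ZNF91, whose product silences SVA retroelements, and ZNF254 formed a block of their own, 4.01-fold and 1.53-fold lower.

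The remaining large blocks lay closer to 0. The 20 genes from ZNF579 to ZNF584, near the end of the long arm, had a median of -0.34 with 3 at least 2-fold lower and none higher, and ranged from -1.14 to 0.41. The 14 genes from ZNF574 to ZNF180 had a median of -0.35, with 2 lower and ZNF404 higher. In the block from ZNF175 to ZNF331, 4 of 13 were lower and 2 higher (ZNF175 and ZNF432). This block held ZNF468 at -3.55 or below and its neighbour ZNF320 at -2.80 next to ZNF160 at 0.52 and ZNF611 at -0.09. Adjacent genes of 1 block could thus differ widely. Over the 70 pairs of neighbours within blocks, the log2 differences correlated with an r of 0.34, as a description of genes whose probes may bind related sequence, and the median gap between neighbours was 0.64.

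**Figure D3:**
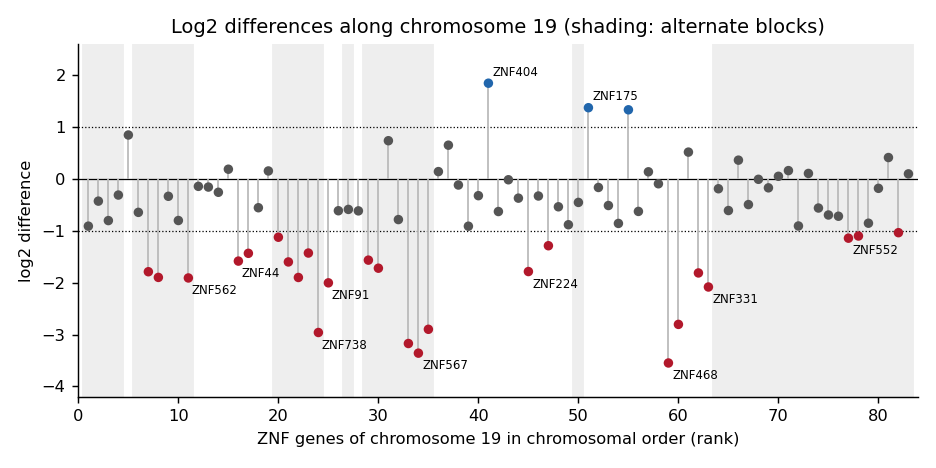
Log2 difference between the FOXM1-siRNA-labelled array and the non-target-labelled array (y axis) for the 83 ZNF genes of chromosome 19 in chromosomal order (x axis, rank); red points are at least 2-fold lower, blue at least 2-fold higher, dotted lines mark 2-fold, and shading marks alternate blocks. The runs around ZNF738 and ZNF567 lie below the lower line, whereas most of the last 20 genes lie between the lines.

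ZNF genes with a known role were grouped in 7 lists, of which ZNF385A, ZNF76, ZNF410, ZNF687, ZNF608, ZNF618, ZNF93, ZNF10 and ZNF423 missed the signal threshold. In the list of ribosome and translation factors, ZNF598, the ubiquitin ligase that marks collided ribosomes, read 223 on the FOXM1-siRNA-labelled array and 551 on the non-target-labelled array (log2 difference -1.30). ZNF593 and ZNF622, whose yeast counterparts act in maturation of the large ribosomal subunit, read 1874 (FOXM1 siRNA label) and 2339 (non-target label), and 1673 (FOXM1 siRNA label) and 1525 (non-target label). Only ZNF598 of the 3 thus passed 2-fold, on the lower side, against 16.1% of all genes. Its other probe set was under both floors.

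Of 6 ZNF genes for RNA binding and splicing, 2 passed 2-fold, both on the lower side, against 16.1% of all genes and 30.2% of ZNF genes, and the median was -0.70. ZNF326, a subunit of the DBIRD complex that links transcript elongation to splicing, read 982 on the FOXM1-siRNA-labelled array and 6050 on the non-target-labelled array (6.16-fold lower), and a further probe set gave a log2 difference of -2.10. ZNF638, which works with the HUSH complex to silence unintegrated retroviral DNA, read 2118 (FOXM1 siRNA label) and 4274 (non-target label), a log2 difference of -1.01, with 2 further probe sets at -0.76 and -0.28. It was under 2-fold with quantile normalization, loess and a pseudocount. ZNF346, which binds double-stranded RNA, and ZNF106 were at -0.69 and 0.52. In the list for mitosis and genome maintenance, 1 of 6 was lower and 1, ZNF365, higher, with a median of -0.06. Both counts were near the shares of all genes, 16.1% and 15.2%. ZNF280C was the lower one, at 278 (FOXM1 siRNA label) and 1189 (non-target label), 4.28-fold lower. ZNF207, which binds the checkpoint protein BUB3 at kinetochores and stands in both lists, read 4945 (FOXM1 siRNA label) and 8103 (non-target label), a log2 difference of -0.71, and its 7 further probe sets above both floors lay between 2-fold lower and a log2 difference of 0.15. ZNF830, in both lists as well, ZNF350, a partner of BRCA1, and ZNF827, which acts at telomeres, were at 0.04, -0.17 and 0.31. In the RNA list 4 of 6 genes thus lay at -0.69 or below, and in the mitosis list the genes lay on both sides of 0.

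Of 5 general activators, ZNF711 was the only one past 2-fold, on the lower side, against 16.1% of all genes lower and 15.2% higher. ZNF143, which drives snRNA genes and many housekeeping promoters, read 960 on the FOXM1-siRNA-labelled array and 1125 on the non-target-labelled array (-0.23), and ZNF281 read 3210 (FOXM1 siRNA label) and 3825 (non-target label), a log2 difference of -0.25. ZNF148, its close relative, was at 0.83 in its brightest probe set, but 6 others ran from -0.42 to 1.39. ZNF384 was at -0.52.

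Of 11 genes of co-repressor and histone methylation complexes 3 were at least 2-fold lower, against 16.1% of all genes, and 2 higher, against 15.2%, and the median was 0.06. The count of higher genes was near the share of all genes. Besides ZNF703, ZNF518B read 270 on the FOXM1-siRNA-labelled array and 1435 on the non-target-labelled array (5.31-fold lower), and ZNF644, a partner of the histone methyltransferases EHMT1 and EHMT2, read 1616 (FOXM1 siRNA label) and 5726 (non-target label), a log2 difference of -1.83. The 2 further probe sets of ZNF644 gave -1.20 and 0.74. ZNF217, an oncogene whose product binds the CoREST complex, read 4615 (FOXM1 siRNA label) and 2125 (non-target label), 2.17-fold higher in its only probe set, but under 2-fold with median centring (0.96) and with scaling to hybridisation controls (0.82). ZNF532 (1.29) and ZNF592 (-0.39), which bind ZMYND8 together, differed in direction. ZNF451, a SUMO ligase, ZNF609, ZNF516, ZNF652 and ZNF512B differed by less than 2-fold, at 0.52, 0.43, 0.30, 0.06 and -0.86.

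Of 4 genes in the retroelement list 2 met the signal threshold, and both were at least 2-fold lower, against 16.1% of all genes and 30.2% of ZNF genes. ZNF91 read 143 on the FOXM1-siRNA-labelled array and 574 on the non-target-labelled array (4.01-fold). Of its 6 other probe sets 4 were under both floors, 1 was above only that of the non-target-labelled array and 1 above only that of the other. ZNF274, which brings SETDB1 to the 3' ends of ZNF genes, read 635 (FOXM1 siRNA label) and 1302 (non-target label), a log2 difference of -1.04, with a further probe set at -0.21, and was under 2-fold with loess and with a pseudocount. Both calls thus rest on 1 probe set each.

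Of 4 lineage regulators 3 were at least 2-fold higher, against 15.2% of all genes, with a median of 1.25. With the median over all probe sets only ZNF395 of the 4 was at least 2-fold higher, and ZNF536 was at -1.57. ZNF462, a regulator of neural development, read 1358 on the FOXM1-siRNA-labelled array and 417 on the non-target-labelled array (3.25-fold higher), with a further probe set at 0.80. ZNF395, which is induced by hypoxia, read 2472 (FOXM1 siRNA label) and 961 (non-target label), a log2 difference of 1.36, with a further probe set at 1.31. ZNF521, a co-factor that antagonises EBF transcription factors, read 401 (FOXM1 siRNA label) and 183 (non-target label), a log2 difference of 1.13, with a further probe set at 0.62. It was under 2-fold with median centring (0.98), with scaling to hybridisation controls (0.83) and with a pseudocount (0.95). ZNF536, a repressor of neuronal differentiation, was at -0.59, and its further probe set at -1.64.

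**Figure D4:**
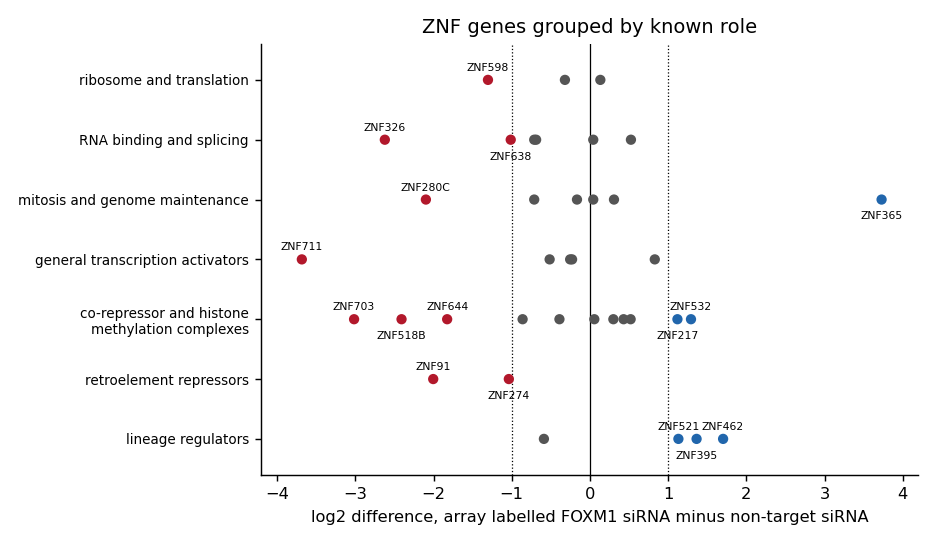
Log2 difference between the FOXM1-siRNA-labelled array and the non-target-labelled array (x axis) for ZNF genes in 7 lists of known role (rows); red points are at least 2-fold lower, blue at least 2-fold higher, and dotted lines mark 2-fold. ZNF207 and ZNF830 stand in 2 lists. In the list of lineage regulators 3 of 4 genes lie right of the upper line, and both genes of the retroelement list (ZNF91 and ZNF274) left of the lower.

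Among the 6 brightest ZNF genes the differences were moderate. ZNF664, with the highest mean, read 6575 on the FOXM1-siRNA-labelled array and 13192 on the non-target-labelled array (2.01-fold lower). A further, far dimmer probe set gave 1.08, so that its direction is not settled. That probe set read 146 (FOXM1 siRNA label) and 69.1 (non-target label), the latter near the floor of 60.8. ZNF503, a developmental repressor of the ZNF703 family, read 6818 (FOXM1 siRNA label) and 11044 (non-target label), a log2 difference of -0.70. ZNF706 read 8715 (FOXM1 siRNA label) and 5074 (non-target label), a log2 difference of 0.78. ZNF146, made almost entirely of fingers, and ZNF121 were at -0.78 and -0.80. Apart from ZNF664, at the edge of the threshold, none of the 6 brightest genes, ZNF207 included, reached 2-fold.

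The only error available is the spread between probe sets of the same gene. Over 108 ZNF genes with at least 2 probe sets above both floors, the SD per probe set was 0.54 on the log2 scale, against 0.50 over 5235 genes at the same signal threshold. In 73 of the 108 genes (67.6%) all further probe sets had the sign of the brightest. Of the 73 genes at least 2-fold lower, 27 had a further probe set above both floors. In 20 of these all went the same way, and in 11 all were themselves at least 2-fold lower. In ZNF664 1 was at least 2-fold higher, with a reading near the floor on the non-target-labelled array. The 11, named after their values were seen, were ZNF678, ZNF326, ZNF322, ZNF589, ZNF689, ZNF765, ZNF202, ZNF75D, ZNF430, ZNF182 and ZNF747. The 7 with a probe set of opposite sign were ZNF644, ZNF224, ZNF445, ZNF318, ZNF101, ZNF394 and ZNF664. Of the 46 lower genes with no further probe set above both floors, 20 had no further probe set at all, 12 had others that were all under both floors, 12 had one above the floor on the non-target-labelled array only, as ZNF711 and all 3 others of ZNF567 did, and 3 had one above that of the FOXM1-siRNA-labelled array only. ZNF91 counts in both of the last groups.

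Among the 15 higher genes, 8 had a further probe set above both floors, and in 6 of them all went the same way. In ZNF252P and ZNF654 at least 1 went the other way. With the median over all probe sets of a gene, those under the floor included, ZNF736, ZNF518B, ZNF598, ZNF274, ZNF638 and ZNF664 were under 2-fold on the lower side, with log2 differences of -0.76 to -0.27. On the higher side this held for ZNF335, ZNF462, ZNF175, ZNF521 and ZNF654, at 0.55 to 0.87, and ZNF503 came to 0.35, the log2 ratio of the floors. The next brightest probe set of the 108 genes had a median of -0.22, weaker than that of the brightest, with 21 at least 2-fold lower and 8 higher. Only 12 of these 21 and 3 of these 8 were also past 2-fold in the same direction in the brightest probe set. The pair of values correlated with an r of 0.69 across genes. Because this family holds close paralogs, the counts were also made by kind of probe set. Shares over all genes of each kind were not counted, so the part of the probe set kind was not tested. Of 24 genes read by an _x_at probe set, whose probes may bind related genes, 13 passed 2-fold, each on the lower side (median -1.03). Of 36 read by an _s_at probe set, shared between transcripts, 7 were lower and 3 higher (median -0.25). The 182 read by a plain _at probe set had 53 lower (29.1%) and 12 higher, close to the shares of all 242.

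**Figure D5:**
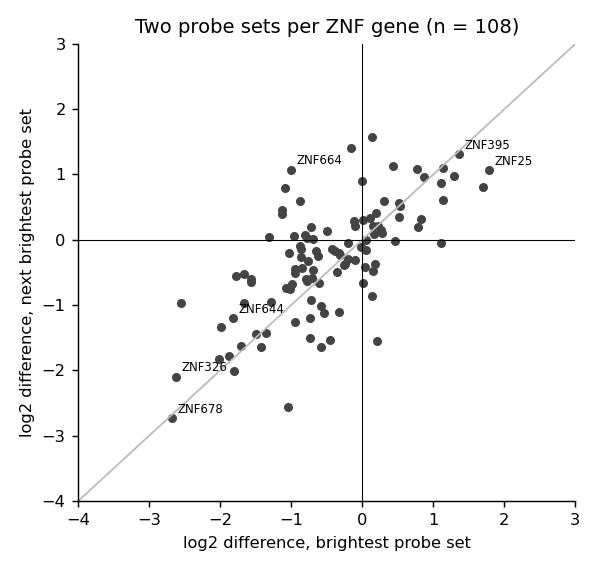
Log2 difference between the FOXM1-siRNA-labelled array and the non-target-labelled array in the next brightest probe set (y axis) against that in the brightest (x axis) for the 108 ZNF genes with at least 2 probe sets above both floors; the grey line marks equality. Most points lie in the lower left and upper right, and ZNF664 is 1 of those in the upper left.

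Other zinc finger families, defined by symbol and by the same signal threshold, were set beside the ZNF genes and the 16.1% of all genes that were at least 2-fold lower and 15.2% higher. Among 27 ZBTB genes, which pair fingers with a BTB domain, 6 passed 2-fold on the lower side and 3 on the higher (median -0.45), near those shares. The ZSCAN genes, with a SCAN box, had 3 of 11 lower and 1 higher (-0.47), and of 5 ZKSCAN genes, with both boxes, 2 were lower (-0.85). These lower genes (ZSCAN12, ZSCAN9, ZSCAN16, ZKSCAN8 and ZKSCAN3, named after their values were seen) all lie on chromosome 6. There 32.5% of genes outside the ZNF set were at least 2-fold lower, and the part of the chromosome in these counts was not tested. Of 9 ZFP genes 1 was lower and 1 higher. The higher one, ZFP36, named after its value was seen, encodes a CCCH RNA-binding protein and no C2H2 factor, and of the 8 others 1 was lower and 0 higher (-0.75). The KLF genes, whose 3 fingers bind GC-rich promoter sites, went the other way, with 6 of 12 at least 2-fold higher and 2 lower (median 0.99). KLF7 read 1218 on the FOXM1-siRNA-labelled array and 230 on the non-target-labelled array, and KLF10 10503 (FOXM1 siRNA label) and 3327 (non-target label). The medians of the ZBTB, ZSCAN, ZKSCAN and ZFP genes thus lay on the same side of 0 as that of the ZNF genes, and the median of the KLF genes on the other side.

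The machinery through which KRAB proteins act was also measured. Of 25 genes for TRIM28, its partners, HP1 proteins, the HUSH and NuRD complexes and histone or DNA methylation, 23 met the threshold, and 8 of these passed 2-fold on the lower side and 1 on the higher, against 16.1% and 15.2% of all genes (median -0.59). TRIM28 itself read 1071 on the FOXM1-siRNA-labelled array and 1609 on the non-target-labelled array (-0.59), and SETDB1 291 (FOXM1 siRNA label) and 501 (non-target label), a log2 difference of -0.79. The histone methyltransferase gene EHMT1 read 637 (FOXM1 siRNA label) and 1757 (non-target label), 2.76-fold lower, the deacetylase gene HDAC1 5842 (FOXM1 siRNA label) and 15139 (non-target label), 2.59-fold lower, and the HUSH gene MPHOSPH8 933 (FOXM1 siRNA label) and 2007 (non-target label), 2.15-fold lower. RBBP4, RBBP7, HDAC2, TASOR and DNMT1 were between 2.41-fold and 2.04-fold lower, and the methyl-CpG reader gene MBD2 was 2.09-fold higher. The HP1 genes CBX1, CBX3 and CBX5 were at -0.60, -0.57 and 0.12.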

How the data were processed

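RNA of 2 samples labelled U87 was hybridised, with a single array for each sample. A 3' IVT labelling kit was used per the labels' protocols, so signals report mainly the 3' ends of transcripts. The deposited values are linear signal intensities for 54675 probe sets, made by the authors with MAS5 per the submitters' processing notes (version not given in the sources used here). Their 2% trimmed mean was 500.07 on both arrays, so each array had been scaled as a whole, which assumes an equal mean signal.

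The platform annotation gave 41097 probe sets a single gene symbol and 1801 several, and 11777 are unnamed here. Only the first were used. All 242 ZNF symbols are current in the GRCh38.p14 gene table, and 4 of the genes are pseudogenes. Signals under the floor (90th percentile of 135 olfactory receptor probe sets) were raised to it before log2. Folds against the floor are bounds. Every log2 difference has FOXM1 siRNA as labelled on top and non-target siRNA below. Counts use 2-fold. The number of arrays limits precision: there is no SD between samples and no p-value. Members, role lists and the naming rule (the 12 largest differences per direction above both floors, genes under a floor, the 6 brightest, those at the threshold, and role lists) were chosen with earlier results of these data known. The difference calculation was tested on simulated data. Python 3.11.15, numpy 2.4.6, pandas 2.3.3 and statsmodels 0.14.6 were used. Protein sequences were not used here, so the planned division by KRAB box was not made.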

Additional observations from a re-analysis of the deposited data

How the results depend on the processing

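The lower median of the ZNF genes kept its sign under the 11 alternatives that recompute it, out of 13. Of 63 named genes, 2 of those past 2-fold changed sign, both with the median over a gene's probe sets: ZNF91 at 0.35, which is the log2 ratio of the floors, and ZNF704 at 0.052. In that setting 50 genes (20.7%) were lower and 8 (3.31%) higher, against 11.7% and 12.6% of all genes. The median was -0.27 (-0.30 relative to all genes), and 11 named genes lost 2-fold. Probe sets under both floors enter the median of their gene at 0.35 by construction, 3 of the 6 of ZNF704 among them. Their part in the changed counts was not tested. Scaling to the 18 hybridisation controls, whose median log2 difference was 0.30, gave 104 lower and 9 higher and a median of -0.87. It moved the median of all genes to -0.40, with 24.8% lower and 11.2% higher, and shifts every gene alike. Median centring gave 88 lower (36.4%), 10 higher (4.13%) and a median of -0.73. It also shifted all genes, to 20.3% lower, 12.9% higher and a median of -0.25. The median of the ZNF genes relative to all genes stayed at -0.48. ZNF217, ZNF521 and ZNF654 lost 2-fold in both scalings, ZNF532 with hybridisation controls (and without _s_at probe sets). ZNF274, ZNF638 and ZNF664 lost it with loess and the pseudocount, ZNF521 with the pseudocount, ZNF638 with quantile normalization and ZNF274 without _s_at probe sets. With 200 required on both arrays 42 (21.4%) were lower, against 13.7% of all genes, with a median of -0.40 (-0.30 relative to all genes). In that setting 9 were at least 4-fold lower and 0 at least 4-fold higher (4-fold chosen after seeing the data). Fewer or more genes or another fold changed the counts by construction: 100 lower and 23 higher of 315 at a threshold of 100, 39 and 9 of 135 at 400, 119 and 24 at 1.5-fold, 46 and 6 at 3-fold. Over all genes, 17.0% were lower and 16.3% higher at 100, and 15.3% and 13.8% at 400. At 1.5-fold these shares were 29.2% and 23.8%, and at 3-fold 6.91% and 8.89%. Quantile normalization (73 and 15), loess (69 and 15), a pseudocount of 50 (63 and 13), no floor (73 and 15) and leaving out _x_at and _s_at probe sets (57 and 12 of 193) kept counts within 1.5 times. In these settings 14.4% to 16.7% of all genes were lower and 14.1% to 16.3% higher. No paired analysis was possible because each group holds 1 array, and leaving out a replicate was not possible for the same reason. The split by KRAB box was not run. Low signal limits the folds of genes near the floor.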
